A study of Mus musculus with 2 samples.

Results

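Th Slc18a2 neurons are the neurons of the preoptic area that carried transcripts of both tyrosine hydroxylase (Th), the enzyme that makes the dopamine precursor L-DOPA, and the vesicular monoamine transporter (Slc18a2), which loads dopamine and other monoamines into synaptic vesicles. A cell was counted as a neuron with at least 2000 genes, under 20% mitochondrial UMIs (unique molecular identifiers, 1 for each captured transcript), at least 10 UMIs of Snap25 and Syt1 together and at most 1 UMI of Mog and Ermn together. Neurons with at least 3 Th UMIs and at least 1 Slc18a2 UMI were then taken. The rule found 90 of 8072 neurons. Th and Slc18a2 therefore chose these cells, and their levels are given as a description only.

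The study profiled single cells of the preoptic area from C57BL/6J mice aged 9 to 10 weeks, with cells prepared by Act-seq, a dissociation carried out with transcription blocked so that handling induces fewer activity genes, and captured on the 10x Genomics platform. One library came from mice kept awake for 6 h and then left to sleep for 2 h (SD+RS, recovery sleep), and the other from mice taken directly at the end of 6 h awake (SD, sleep deprivation). Males and females were pooled in both, and the labels do not say how many mice went into a pool. Each group is 1 library, so no difference between them could be set against replicates, no p-value is given, and every 95% interval below covers counting error only.

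There were 8106 barcodes with 123500649 UMIs in SD+RS, and 10262 barcodes with 132191585 UMIs in SD. The median depth was 14774 UMIs per barcode in SD+RS and 7534.5 in SD, but the Th Slc18a2 neurons were of like depth, with medians of 21729.5 and 24380.5 UMIs, against 21810 and 22253 in the other neurons. The libraries shared 23 barcodes. Cells with Xist UMIs and none of Y-linked genes made up 74.1% of SD+RS neurons and 34.5% of SD neurons, so the sexes were mixed in unequal parts. Summed over the Th Slc18a2 neurons there were 1334787 UMIs in SD+RS and 1040408 in SD, and levels below are CPM, each gene's UMIs scaled from these sums to an equal total.

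Dopamine is made in a short chain: Th, with a pterin cofactor supplied by Gch1, Pts and Spr, makes L-DOPA, and the decarboxylase Ddc turns it into dopamine. Slc18a2 fills the vesicles, and the plasma membrane transporter Slc6a3 takes dopamine back up in the dopamine neurons of the midbrain. The hypothalamus and preoptic area hold smaller dopamine groups, some of which release neuropeptides or GABA as well, and Th transcripts are also found in hypothalamic neurons that lack the rest of the chain.

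Th lies on chromosome 7 from 142892752 to 142931128 on the minus strand, and Slc18a2 on chromosome 19 from 59260896 to 59296012 on the plus strand (mm10). The start of both transcripts holds a full cAMP response element, the sequence bound by transcription factors of the CREB family that neuronal firing activates. These 2 promoters are shown because their genes define the cells. Each stretch runs from 100 bases before the RefSeq transcription start to 20 bases after it, and the element is in capitals.
Th, chr7:142899976-142900095, minus strand, GRCm38.p6: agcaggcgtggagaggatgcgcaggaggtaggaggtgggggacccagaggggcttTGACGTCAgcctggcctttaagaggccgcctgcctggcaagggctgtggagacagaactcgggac
Slc18a2, chr19:59260778-59260897, plus strand, GRCm38.p6: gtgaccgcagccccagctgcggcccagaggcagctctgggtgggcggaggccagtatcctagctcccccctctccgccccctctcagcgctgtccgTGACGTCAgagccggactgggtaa
The element TGACGTCA began 45 bases before the start of Th and 4 bases before that of Slc18a2. It was searched on both strands from 250 bases before to 50 after the start, and 588 of 32851 RefSeq promoter windows (1.79%) hold it. The same window was searched for TGANTCA (the AP-1 element, in 7.81% of windows), AAAGGTCA (the NGFI-B response element, in 1.51%) and TATAAA (in 13.6%). Of these the Th window held 1 AP-1 element and the Slc18a2 window none. Ddc, on chromosome 11 from 11814101 to 11898144, has 2 windows, neither of which holds TGACGTCA. The first Ddc window held 1 AP-1 element, 1 NGFI-B response element and 1 TATAAA, and the second held none of these. A match is a match of letters in the reference and not evidence of binding.

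The rule took 54 of 4149 SD+RS neurons (1.30%, interval 0.979 to 1.69) and 36 of 3923 SD neurons (0.918%, 0.644 to 1.27), and these intervals overlap. Within cells that had Xist UMIs only, the shares were 34 of 3075 (1.11%) in SD+RS and 15 of 1354 (1.11%) in SD. Among neurons whose sex-linked UMIs were all Y-linked, they were 15 of 850 (1.76%, 0.991 to 2.89) and 17 of 2088 (0.814%, 0.475 to 1.30). The share was thus level between libraries in one sex and higher in SD+RS in the other, where the intervals overlap.

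Th had a median of 7 UMIs per cell in SD+RS (range 3 to 28) and 6 in SD (3 to 18), which summed to 340 and 266 CPM. Slc18a2 had a median of 2 (1 to 10) and 1.5 (1 to 21), or 132 and 96.1 CPM. Both were sparse: 20 of the 54 SD+RS cells and 18 of the 36 SD cells passed on a single Slc18a2 UMI. Just inside the threshold lay 9 SD+RS cells and 7 SD cells with exactly 3 Th UMIs, of which 4 and 7 had a Ddc UMI, and just outside it 10 and 6 cells with Slc18a2 and 2 Th UMIs, of which 7 and 4 had a Ddc UMI.

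Most neurons with Th carried no Slc18a2 UMI. Of neurons with at least 3 Th UMIs, 118 in SD+RS and 117 in SD had none, and in these Ddc stood at 61.3 and 46.8 CPM. Slc18a2 was found in 6.24% of SD+RS neurons without Th (238 of 3815) and in 5.61% of SD neurons without Th (201 of 3582). With 1 or 2 Th UMIs the share was 14.2% in SD+RS and 13.8% in SD, with 3 to 9 it was 31.0% (interval 23.0 to 39.8) and 21.3% (14.5 to 29.4), and with 10 or more it was 32.6% (19.5 to 48.0) and 34.6% (17.2 to 55.7). The share of neurons with Slc18a2 was thus higher at 3 to 9 Th UMIs than at none in both libraries. Median depth also differed along this order, from 21623 UMIs without Th to 27457 with 10 or more in SD+RS and from 22090 to 28208.5 in SD, and its part was not tested.

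**Figure D1:**
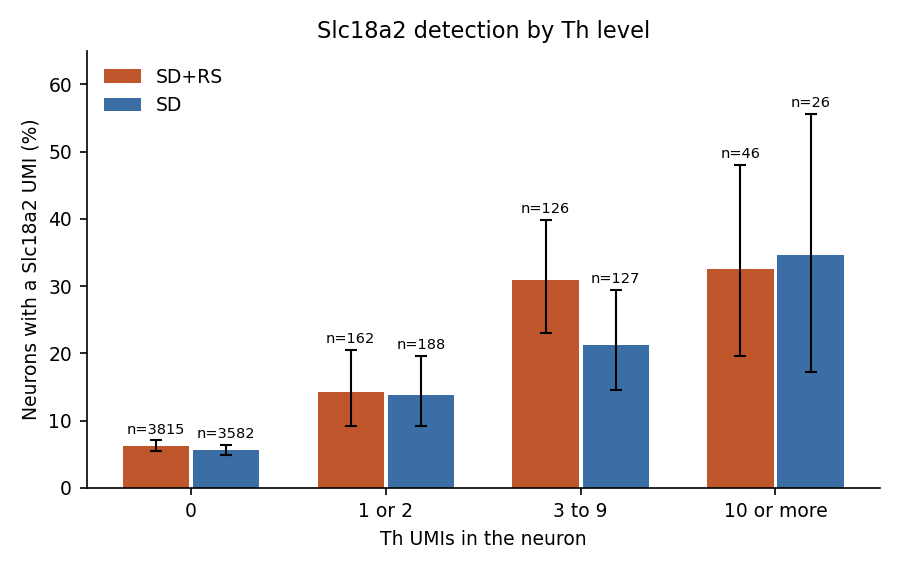
Share of neurons with at least 1 Slc18a2 UMI (y axis, percent) by the number of Th UMIs in the neuron (x axis), in SD+RS (left bars) and SD (right bars). Bars are shares, whiskers are exact 95% binomial intervals that cover counting error only, and n is the number of neurons; the share is 6.24% and 5.61% without Th and 31.0% and 21.3% with 3 to 9 Th UMIs.

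Background from free RNA was read in astrocytes. Of 1144 SD+RS and 1932 SD astrocytes, cells that should lack both genes, 0 passed the Th and Slc18a2 thresholds, which allows shares of up to 0.262% and 0.155%. Th was found in 0.262% of SD+RS and 0.621% of SD astrocytes, and Slc18a2 in 0.350% and 0.311%, at median depths of 3216 and 3577 UMIs. The astrocytes were several times shallower than the neurons, so these shares are not at matched depth.

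Of the remaining steps of the dopamine chain, Ddc was high but not universal. Ddc stood at 155 CPM in the Th Slc18a2 neurons of SD+RS, against 35.7 CPM in the other neurons (log2 ratio 2.12, 1.91 to 2.32). In SD it stood at 182 CPM, against 30.5 CPM in the other neurons (2.57, 2.35 to 2.79). A Ddc UMI was present in 34 of 54 SD+RS cells (63.0%) and 27 of 36 SD cells, against 29.5% and 26.8% of other neurons. After each cell was thinned to 5000 UMIs the shares were 48.1% and 47.2%, against 12.4% and 11.7% of other neurons. Ddc was thus more frequent than in other neurons in both libraries, yet 29 of the 90 cells had no Ddc UMI. Between libraries the Ddc ratio, SD+RS over SD, was −0.23 (−0.52 to 0.06), an interval that spans no difference. It was 0.16 (−0.27 to 0.60) in cells with Xist UMIs only, −1.01 (−1.54 to −0.50) in those with Y-linked UMIs only and −0.62 (−0.97 to −0.27) in cells with at least 2 Slc18a2 UMIs, so no single direction held. Among the 15 SD+RS and 9 SD cells with at least 10 Th UMIs, Ddc had 73 UMIs (log2 2.26 over other neurons) and 8 UMIs (−0.32), so the direction turned in SD, and the ratio between libraries was 2.77 (1.71 to 4.03). Without the cluster led by Ddc and Sp8, Ddc still stood 1.45 and 1.15 above other neurons on the log2 scale.

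The cofactor enzymes were measured more thinly. Gch1, the first enzyme of pterin synthesis, had 9 UMIs in SD+RS and 7 in SD. Spr, the last, stood at 89.9 CPM in SD+RS and 52.9 CPM in SD (log2 ratio 0.77, 0.29 to 1.25, against 0.13 in other neurons). Pts, the enzyme between them, had 72.7 CPM in SD+RS and 82.7 CPM in SD. Pcbd1 and Qdpr, which regenerate the cofactor, stood at 292 and 160 CPM in SD+RS and 221 and 149 CPM in SD, and Gchfr, which regulates Gch1, had 16 and 6 UMIs. None of these cofactor genes passed 2-fold over other neurons in both libraries. Slc10a4, a vesicle protein of monoamine and cholinergic neurons, had 71 UMIs in SD+RS and 70 in SD, but in only 4 and 5 cells, and 1 cell held 53.5% and 65.7% of them.

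Of the 10 genes of dopamine synthesis and storage, 8 had enough UMIs to compare with other neurons, and 4 were over 2-fold higher in both libraries: Th and Slc18a2, which the rule used, Ddc and Slc10a4. Over all 7261 genes compared in this way, 26 (0.358%) were over 2-fold higher and 38 (0.523%) over 2-fold lower in both libraries, and the median log2 ratio was 0.015 in SD+RS and −0.032 in SD. The median over the 6 compared genes of the list that the rule did not use was 0.43 in SD+RS and 0.29 in SD. Between libraries 1 of the 8 genes, Spr, was past 1.5-fold, where 1.48% of 3774 genes were past it in the higher direction and 1.93% in the lower.

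Genes of reuptake and breakdown stood at or near the level of other neurons. No UMI of Slc6a3 was found in the 90 cells, a count that leaves room for a share of 3.33%, and other neurons had it in 7 of 4095 (0.171%) and 9 of 3887 (0.232%), so at this depth the sets could not be told apart. Slc6a2, the noradrenaline transporter, was at 0 in the cells of both libraries. Maoa, which breaks dopamine down, stood at 40.5 CPM in SD+RS, against 43.0 CPM in other neurons, and at 49.98 CPM in SD, against 40.6 CPM. Maob, a related enzyme, had 13 UMIs in SD+RS and 7 in SD, and Slc22a3, a low-affinity transporter, 3 and 0. Neither of the 2 genes of this list of 6 with enough UMIs passed 2-fold in both libraries.

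Markers of other monoamine neurons were at or near 0. Dbh, which makes noradrenaline, and Tph1, Slc6a4, Fev, Hdc and Slc18a1 of serotonin, histamine and endocrine cells had no UMI in any of the 90 cells. Pnmt had 2 UMIs in 1 SD+RS cell and Tph2 had 1 UMI in SD.

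Among dopamine receptors Drd2, the inhibitory receptor that serves as autoreceptor in many dopamine neurons, was the one with enough UMIs. Drd2 had 43 UMIs in 25 of 54 SD+RS cells (46.3%, against 12.1% of other neurons) and 42 UMIs in 21 of 36 SD cells (58.3%, against 13.0%). That is 32.2 CPM in SD+RS, against 9.34 CPM in other neurons (log2 1.79, 1.31 to 2.23), and 40.4 CPM in SD, against 9.72 CPM (2.05, 1.57 to 2.50). After thinning, a Drd2 UMI was found in 13.0% of SD+RS cells (5.37 to 24.9) and 8.33% of SD cells (1.75 to 22.5), against 4.67% and 3.998% of other neurons. Without the cluster led by Ddc and Sp8, Drd2 was no longer past 2-fold over other neurons, at 0.95 (0.19 to 1.62) in SD+RS and 0.49 (−0.73 to 1.48) in SD. Drd1, the stimulatory receptor, had 3 and 0 UMIs, Drd5 had 2 and 1, and Drd3 and Drd4 had none.

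The transcription factors of midbrain dopamine neurons (Nr4a2, Pitx3, Lmx1a, Lmx1b, En1, En2, Foxa1, Foxa2 and Otx2) were nearly absent, 8 of the 9 being at 0 in SD+RS and 9 of 9 in SD, with a single Nr4a2 UMI. Of 15 factors of forebrain dopamine groups, 10 could be compared. Over all genes compared, 0.358% were over 2-fold higher and 0.523% over 2-fold lower in both libraries. Isl1, a homeobox factor of ventral forebrain neurons, was over 2-fold higher in both libraries: 115 CPM in SD+RS against 53.3 CPM in other neurons, and 142 CPM in SD against 57.0 CPM, in 41 of 54 and 30 of 36 cells. Meis2, a factor of olfactory bulb dopamine neurons, was lower, at 6.74 CPM in SD+RS against 24.5 CPM in other neurons, and 0.96 CPM in SD against 34.6 CPM. Dlx1, a factor of forebrain GABA neurons, stood at 83.9 CPM in SD+RS and 49.98 CPM in SD (log2 0.75, 0.26 to 1.25). Pax6 had 0 UMIs. Otp, a factor of neuroendocrine neurons, had 6 and 20 UMIs in 1 and 2 cells. Dlx2, Dlx5 and Dlx6, of the same family as Dlx1, stood between 27.7 and 38.2 CPM in SD+RS and between 27.9 and 37.5 CPM in SD. Nkx2-1, a factor of the ventral hypothalamus, had 42.7 CPM in SD+RS and 49.0 CPM in SD. Nr2f1 had 23 and 34 UMIs, Etv1 18 and 5, Prox1 15 and 6, Sall3 2 and 0, and Sim1 1 and 7.

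**Figure D2:**
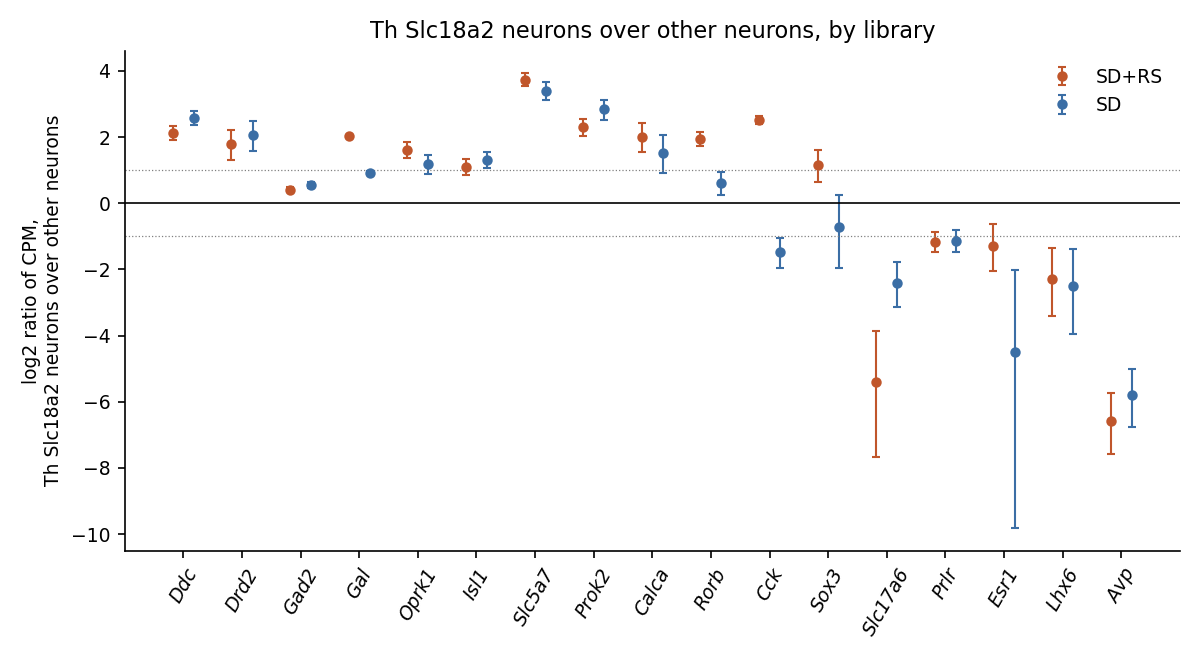
Log2 ratio of CPM in Th Slc18a2 neurons over other neurons (y axis) for 17 named genes (x axis), in SD+RS (left points) and SD (right points). Whiskers are 95% intervals that cover counting error only, and dotted lines mark 2-fold; Ddc sits at 2.12 and 2.57, and Cck lies above 0 in SD+RS and below it in SD.

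Nearly all of the cells were GABAergic by their transcripts. Gad1 or Gad2, the enzymes that make GABA, was found in 89 of 90 cells, and a Gad gene together with the vesicular GABA transporter Slc32a1 in 51 of 54 SD+RS cells (94.4%) and 34 of 36 SD cells (94.4%), against 69.8% and 70.9% of other neurons. Gad2 stood at 928 CPM in SD+RS, against 698 CPM in other neurons, and at 1013 CPM in SD, against 685 CPM. The vesicular glutamate transporter Slc17a6 had 3 UMIs in 2 SD+RS cells and 19 UMIs in 2 SD cells, against a UMI in 29.1% and 29.8% of other neurons. Slc17a6 was the single gene of this list of 7 (5 compared) past 2-fold in both libraries. It was lower, where 0.523% of all genes compared were.

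A cholinergic pair of cells stood out in each library. Slc5a7, which takes up choline, had 261 UMIs in 3 SD+RS cells and 126 UMIs in 3 SD cells, of which 1 cell held 63.2% and 77.0%. The vesicular acetylcholine transporter Slc18a3 had 81 UMIs in 3 cells and 58 in 2, and Chat, which makes acetylcholine, had 24 and 14 UMIs in 2 cells of each library. Both Slc18a3 and Slc5a7 were present in 2 SD+RS cells and 2 SD cells, against 10 other neurons in each library. These 4 cells had 0 Ddc UMIs. Both compared genes of the acetylcholine list of 3 were over 2-fold higher in both libraries, where 0.358% of all genes compared were. Without their cluster the log2 ratio of Slc10a4 over other neurons in SD+RS was −1.45 in place of 2.38.

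The name dopamine-type was not shown to hold for the set as a whole. Ddc was found in 61 of 90 cells, and a cell without a Ddc UMI may still hold the transcript. Slc6a3 was found in none, a count that cannot decide the name at this depth. Pmaip1, a marker given for these cells, was about as rare as in other neurons. It had 3 UMIs in 3 of 54 SD+RS cells (5.56%) and 2 UMIs in 1 of 36 SD cells (2.78%), against 4.18% and 4.71% of other neurons. Rorb, the other marker given, was in 59.3% of SD+RS cells and 27.8% of SD cells, against 30.4% and 31.2% of other neurons. The cells are therefore called by the genes of their rule.

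The 90 cells were spread over 17 of 47 neuron clusters, built on the genes of both libraries. Before clustering, lists of activity, stress, sex-linked and clock genes were set aside, but Rorb, a clock gene, was kept. Th and Slc18a2 were among the genes clustered, so cluster membership is not independent of the rule, and clusters are named by leading genes. The cluster led by Ddc and Sp8 held the most, 14 SD+RS cells (25.9% of 54) and 18 of the 36 SD cells. The cluster led by Prok2 and Adcyap1 held 12 and 2, a cluster with Calca and Lhx8 among its leading genes 6 and 3, the cluster led by Pmaip1 6 and 2, and the cluster led by Prkcd and Rxfp1 3 and 2. Together these 5 clusters held 68 of the 90, and the other 22 cells lay in 12 clusters with 1 to 4 each. The Ddc Sp8 cluster was also the one with Th in most of its cells among those 5, with a Th UMI in 59.5% of its 131 cells and a Slc18a2 UMI in 46.6%.

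The counts of these cells by cluster differed between the 2 libraries. Of all Ddc Sp8 cluster cells, 14 of 69 in SD+RS (20.3%, interval 11.6 to 31.7) and 18 of 62 in SD (29.0%, 18.2 to 41.9) passed the rule. Of all Prok2 Adcyap1 cluster cells, 12 of 97 in SD+RS (12.4%, 6.56 to 20.6) and 2 of 54 in SD (3.70%, 0.452 to 12.7) passed it. Both pairs of intervals overlap. Without the Ddc Sp8 cluster the shares of neurons that passed the rule were 0.980% in SD+RS (0.701 to 1.33) and 0.466% in SD (0.277 to 0.736). These intervals overlap too.

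**Figure D3:**
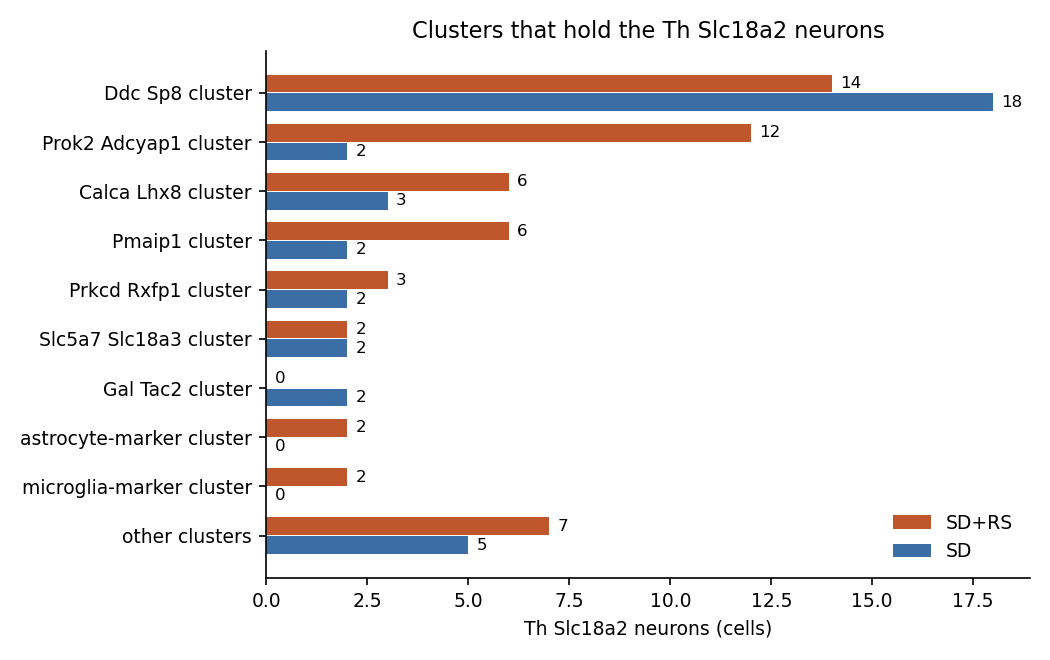
Number of Th Slc18a2 neurons (x axis, cells) in each neuron cluster (y axis, named by leading genes), in SD+RS (upper bars) and SD (lower bars). The Ddc Sp8 cluster holds 14 and 18 cells and the Prok2 Adcyap1 cluster 12 and 2.

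In the Ddc Sp8 cluster the cells came closest to the dopamine chain. Ddc, Th and Slc18a2 are leading genes of this cluster, so their presence in it follows from the clustering and is no separate support. Ddc was present in 13 of 14 SD+RS cells (400 CPM) and in 18 of 18 SD cells (348 CPM), with a median of 7 UMIs in both. Drd2 was present in 12 of 14 and 15 of 18 cells. Tac1, which encodes substance P, had 199 UMIs in 8 SD+RS cells and 175 UMIs in 14 SD cells. Gal, which encodes the inhibitory peptide galanin, had 1 UMI in SD+RS and 12 in SD, and Cck had none in either library. The same held for the cluster as a whole, members of the set or not: Ddc was in 62 of its 69 SD+RS cells (442 CPM) and 52 of its 62 SD cells (269 CPM), Gal had 10 and 30 UMIs, and Cck 2 and 0.

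Among the Prok2 Adcyap1 cluster cells every one carried Gal, at 28 to 620 UMIs in the 12 SD+RS cells and 116 and 306 UMIs in the 2 SD cells. Ddc was present in 6 of 12 SD+RS cells (23 UMIs) and 2 of 2 SD cells (9 UMIs). Oprk1, the kappa opioid receptor, stood at 250.2 CPM in SD+RS and 249.6 CPM in SD. Drd2 had 7 and 0 UMIs, and Tac1 none.

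Gal and Ddc were found together in a minority of cells, as in other neurons. Of the 90 cells, 49 had at least 3 Ddc UMIs and 34 had at least 10 Gal UMIs, and 9 had both. Gal at that level was in 7 of the 27 SD+RS cells with at least 3 Ddc UMIs (25.9%) and 2 of the 22 SD cells (9.09%), against 91 of 412 (22.1%) and 61 of 336 (18.2%) among other neurons. The 5 cells of the Prkcd Rxfp1 cluster carried 538 Gal UMIs in SD+RS and 525 in SD and no Ddc. The Calca Lhx8 cluster cells carried Ddc, with 23 and 4 UMIs, Calca, which encodes the peptide CGRP, with 42 and 20 UMIs, and 3 and 0 Gal UMIs. Both the Ddc and the Gal cells were thus made up of more than 1 cluster.

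**Figure D4:**
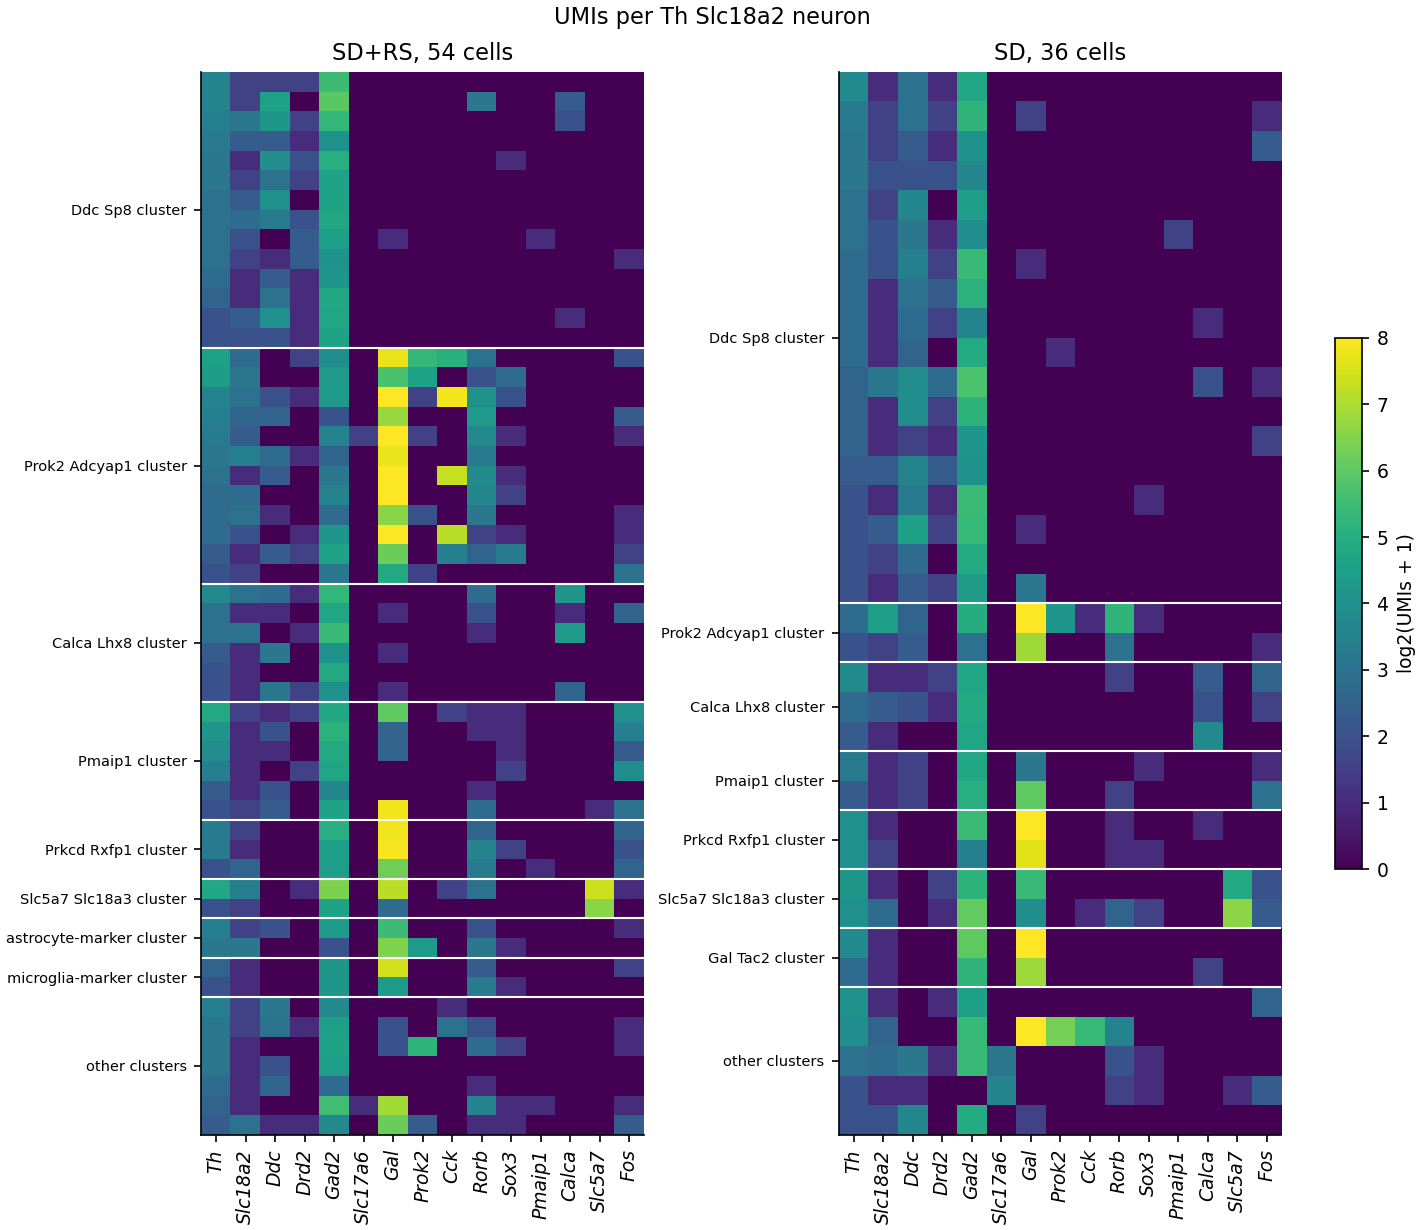
UMIs of 15 genes (x axis) in each Th Slc18a2 neuron (rows), grouped by cluster and ordered by Th within a cluster, with the 54 SD+RS cells on the left and the 36 SD cells on the right. Colour is log2(UMIs + 1) and stops at 8, so the highest Gal and Cck values share 1 colour; Ddc and Drd2 fill the Ddc Sp8 rows, Gal fills the Prok2 Adcyap1 and Prkcd Rxfp1 rows, and Gad2 is present in nearly every row.

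Rorb, a nuclear receptor that works in the circadian clock and in cortical and retinal development, was higher in the SD+RS cells. It had 212 UMIs (159 CPM) in 32 of 54 SD+RS cells and 71 UMIs (68.2 CPM) in 10 of 36 SD cells, against 41.3 and 44.6 CPM in other neurons. The log2 ratio of SD+RS over SD was 1.22 (0.82 to 1.63) in the Th Slc18a2 neurons and −0.11 in other neurons. The sexes were unequal between the libraries, and in cells with Xist UMIs only the ratio was 0.32 (−0.21 to 0.88), an interval that spans no difference, against 1.93 (1.30 to 2.60) in those with Y-linked UMIs only. In cells with at least 2 Slc18a2 UMIs it was 0.44 (0.01 to 0.89). After thinning, a Rorb UMI was found in 37.0% of SD+RS cells and 13.9% of SD cells, against 13.9% and 14.4% of other neurons. In SD 1 cell held 52.1% of the Rorb UMIs. Without that cell Rorb in SD lay below other neurons (log2 −0.39), and without the Prok2 Adcyap1 cluster, which holds that cell, it did so too (−0.64). Within the Prok2 Adcyap1 cluster Rorb ran the other way, at 372 CPM in SD+RS and 732 CPM in SD. The 2 SD cells there had 37 and 7 Rorb UMIs, so the SD level rests mostly on that same cell. The Ddc Sp8 cells, which made up a larger share of the SD cells, had 8 and 0 Rorb UMIs. Rorb was not held out of the clustering, so its levels by cluster are not independent of how the clusters were drawn. Astrocytes express Rorb themselves (62.4% of SD+RS and 66.9% of SD astrocytes had a UMI), so they do not serve as its background.

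Cck, which encodes cholecystokinin, showed how few cells can set a level. It had 583 UMIs (437 CPM) in 9 SD+RS cells and 42 UMIs (40.4 CPM) in 3 SD cells, against 75.8 and 112 CPM in other neurons. The log2 ratio of SD+RS over SD was 3.44 (2.98 to 3.92) in the Th Slc18a2 neurons and −0.56 in other neurons. Of the 583 UMIs, 571 lay in 5 cells of the Prok2 Adcyap1 cluster, and 1 SD cell held 95.2% of the 42. Without that cluster there were 12 UMIs in SD+RS and 41 in SD, and the ratio turned to −1.87. A Cck level of at least 10 UMIs was found in 5 of 54 SD+RS cells and 1 of 36 SD cells, against 3.32% and 4.63% of other neurons.

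Sox3, a factor of neural progenitors that some hypothalamic neurons keep, had 37 UMIs in 18 of 54 SD+RS cells (27.7 CPM) and 8 UMIs in 7 of 36 SD cells (7.69 CPM), against 12.5 and 12.7 CPM in other neurons. Its log2 ratio of SD+RS over SD was 1.85 (0.72 to 3.16). Of the 37 UMIs, 23 lay in the Prok2 Adcyap1 cluster, and without it the ratio was 0.91 (−0.50 to 2.45). In cells with at least 2 Slc18a2 UMIs it was 0.92 (−0.60 to 2.72). Both intervals span no difference. After thinning, 16.7% of SD+RS cells and 0% of SD cells had a UMI, against 6.53% and 5.58% of other neurons.

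Of 38 neuropeptide genes 26 could be compared with other neurons, and 2 were over 2-fold higher in both libraries, Prok2 and Calca. Lower by over 2-fold were 7: Penk, Sst, Vip, Nts, Crh, Gnrh1 and Avp. Over all genes compared, 0.358% were higher and 0.523% lower in this way. The list's median log2 ratio was 0.12 in SD+RS and −0.53 in SD. Calca stood at 37.5 CPM in SD+RS, against 9.34 CPM in other neurons, and at 25.9 CPM in SD, against 9.00 CPM. Most of its UMIs lay in the Calca Lhx8 cluster, where the highest cells had 19 and 17 UMIs in SD+RS and 13 in SD. Prok2, a secreted peptide that serves as an output signal of the circadian clock, stood at 97.4 CPM in SD+RS, against 19.8 CPM in other neurons, and at 95.2 CPM in SD, against 13.3 CPM, in 9 and 3 cells, and 1 SD cell held 80.8% of the SD UMIs. Avp, the antidiuretic hormone, stood at 8.24 CPM in SD+RS, against 780 CPM in other neurons, and at 11.5 CPM in SD, against 645 CPM. In SD, 1 cell with 32106 Oxt UMIs of 89764 was an oxytocin-rich cell with no Gad2 UMI.

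Gal was the most abundant of the peptides in the set apart from that cell. It had 4341 UMIs (3252 CPM) in 33 of 54 SD+RS cells and 2005 UMIs (1927 CPM) in 16 of 36 SD cells, against 800 and 1024 CPM in other neurons. Neurons with at least 3 Th UMIs and no Slc18a2 UMI had 2733 CPM in SD+RS and 2969 CPM in SD. A high Gal level was thus not particular to the set. The log2 ratio of SD+RS over SD was 0.75 (0.68 to 0.83) in the Th Slc18a2 neurons and −0.36 in other neurons. Without the Prok2 Adcyap1 cluster it was −0.16 (−0.26 to −0.05), and with at least 10 Th UMIs it was −0.57 (−0.68 to −0.46). The direction of the difference thus depended on the 12 and 2 cells of that cluster and on the Th threshold. In cells with Xist UMIs only the ratio was 0.27 (0.17 to 0.38), and in those with Y-linked UMIs only 0.96 (0.84 to 1.07).

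Of 10 genes for steroid and prolactin receptors 5 could be compared, and 2 were over 2-fold lower in both libraries, where 0.523% of all genes compared were. Prlr, the prolactin receptor, stood at 70.4 CPM in SD+RS, against 157 CPM in other neurons, and at 76.9 CPM in SD, against 168 CPM. Esr1, the oestrogen receptor, stood at 13.5 CPM in SD+RS, against 33.2 CPM in other neurons, and at 0.96 CPM in SD, against 21.9 CPM.

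Oprk1 was the peptide receptor past 2-fold in both libraries, 1 of 6 compared in a list of 31, where 0.358% of all genes compared were higher. It stood at 107 CPM in SD+RS, against 35.2 CPM in other neurons, and at 100 CPM in SD, against 43.8 CPM, in 36 of 54 and 24 of 36 cells. None of the 6 receptors for wake transmitters and sleep factors that could be compared, of a list of 20, and none of 11 pacemaking and potassium channels, of 18, passed 2-fold in both libraries. Between libraries 2 of these 18 channels had enough UMIs, and both were past 1.5-fold lower in SD+RS, where 1.93% of 3774 genes were. Hcn2, a channel of the pacemaker current, was 1 of them, with 50 UMIs in SD+RS, against 61 UMIs in SD (log2 ratio −0.65, −1.22 to −0.08, against −0.03 in other neurons). Its SD+RS count sits at the minimum of 50 UMIs. Lhx6 and Foxp2 were over 2-fold lower in both libraries among 11 region factors compared of 29, where 0.523% of all genes compared were. Lhx6, a factor of neurons from the medial ganglionic eminence, had 6.74 CPM in SD+RS against 32.7 CPM in other neurons, and 5.77 CPM in SD against 32.5 CPM.

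Ranked on the less extreme of the 2 libraries, the 20 genes highest over other neurons included Th, Slc18a2, Gm8773, Ngfr, Slc18a3, Slc5a7, Crabp1, Wfdc1, Slc10a4, Prok2, Gm45768, Ddc, Drd2, Calca, Cox6a2, Dlx6os1, Gpc4, Sncg and Oprk1. Many of these levels rest on single cells: 1 cell held 87.3% of the Gm8773 UMIs in SD+RS and 85.7% in SD, and all 20 Wfdc1 UMIs in SD+RS lay in 1 cell. Ngfr, a neurotrophin receptor that forebrain cholinergic neurons carry, was in 5 SD+RS cells and 3 SD cells. Genes spread over many cells were Ddc, Drd2, Oprk1, Dlx6os1 (27 of 54 SD+RS and 13 of 36 SD cells), a transcript of the Dlx locus, and Gm45768 (14 and 17 cells). Sncg, which encodes gamma-synuclein, stood at 139 CPM in SD+RS, against 58.4 CPM in other neurons, and at 210.5 CPM in SD, against 57.6 CPM, in 16 and 17 cells.

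The 10 lowest genes were Avp, Gnrh1, Vip, Nrn1, Bdnf, Serpinb1b, Slc17a6, Nrgn, Lhx6 and Penk. Nrgn, a calmodulin-binding protein of dendritic spines, stood at 49.5 CPM in SD+RS, against 584 CPM in other neurons, and at 101 CPM in SD, against 524 CPM. Bdnf, a growth factor made by active glutamatergic neurons, had 3 UMIs in SD+RS and 5 in SD, or 2.25 and 4.81 CPM, against 38.7 and 38.1 CPM in other neurons.

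Between libraries, 56 of 3774 genes (1.48%) were over 1.5-fold higher and 73 (1.93%) over 1.5-fold lower in SD+RS in the Th Slc18a2 neurons. In the other neurons 3 (0.0795%) and 4 (0.106%) of the same genes were. The sets differ in size, with 54 and 36 cells against 4095 and 3887, so counting error and cell makeup weigh more on the small one. The median log2 ratio was 0.0073 in the Th Slc18a2 neurons and 0.0015 in other neurons.

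Ranked by the interval bound nearest to no difference, the 10 genes highest in SD+RS were Nts, Pde1a, Spint2, Tesc, Hpcal1, Rorb, Tmem158, Ogfrl1, Scg2 and Gal. Nts, which encodes the peptide neurotensin, stood at 288 CPM in SD+RS and 49.98 CPM in SD (log2 2.53, 2.10 to 2.97, against 0.24 in other neurons). Pde1a, a calmodulin-dependent phosphodiesterase, was in 31 of 54 SD+RS cells and 9 of 36 SD cells, at 141 and 53.8 CPM (1.39, 0.95 to 1.85). Scg2, a secretogranin of dense-core vesicles, stood at 1184 CPM in SD+RS and 676 CPM in SD, with medians of 25.5 and 6.5 UMIs per cell. Spint2, a protease inhibitor, was in 44 of 54 SD+RS cells and 20 of 36 SD cells (233 and 103 CPM), and Ogfrl1 was in 53 and 35 cells (276 and 140 CPM). Tmem158 stood at 190.3 CPM in SD+RS and 92.3 CPM in SD, and Hpcal1, a calcium sensor, at 377 and 178 CPM. The other neurons had ratios between −0.36 and 0.25 for these 10 genes.

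The 10 genes lowest in SD+RS were AC149090.1, Cbln2, Ptn, Calb2, Pbx3, Nrgn, Zfhx4, Hs6st2, Cadm2 and Chordc1. AC149090.1 (log2 −1.28) and Chordc1, a co-chaperone induced by heat shock (−0.77), were lower in other neurons as well, at −1.68 and −0.53. Calb2, the calcium-binding protein calretinin, stood at 173 CPM in SD+RS and 337 CPM in SD, with a median of 0.5 and 8 UMIs per cell, and Ptn, a secreted growth factor, at 196 and 383 CPM. Pbx3, a homeobox factor of dopamine and other forebrain neurons, was in 25 of 54 SD+RS cells and 28 of 36 SD cells. The counts of the cells by cluster also differed between the 2 libraries, as given above, and their part in these genes was not tested.

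Activity was read from immediate early genes, whose transcripts build up soon after a neuron fires. Fos had 99 UMIs (74.2 CPM) in 24 of 54 SD+RS cells (44.4%) and 40 UMIs (38.4 CPM) in 13 of 36 SD cells (36.1%), against 56.0 and 57.8 CPM in 34.8% and 29.4% of other neurons. The log2 ratio of SD+RS over SD was 0.95 (0.40 to 1.52) in the Th Slc18a2 neurons and −0.04 in other neurons. After thinning, a Fos UMI was found in 24.1% of SD+RS cells (13.5 to 37.6) and 13.9% of SD cells (4.67 to 29.5), against 15.7% and 14.7% of other neurons, and the first 2 intervals overlap. Fos was found in 6.03% of SD+RS and 8.28% of SD astrocytes, and 14 and 55 of them had at least 3 Fos UMIs. The astrocytes were also several times shallower than the neurons, so these shares are not a matched background for Fos.

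Summed over 14 core early genes, the cells had 497 UMIs in SD+RS (372 CPM) and 198 UMIs in SD (190 CPM), against 268 and 269 CPM in other neurons. The log2 ratio was 0.97 (0.73 to 1.21) in the Th Slc18a2 neurons and −0.00 in other neurons. Junb was the single gene of the list with enough UMIs between libraries, with 161 and 58 UMIs (1.11, 0.67 to 1.57). Fos, given above, was below that minimum in SD. Also below it in SD or in both were Egr1 with 66 and 33 UMIs, Btg2 with 58 and 15, Fosb with 23 and 4, Npas4 with 15 and 2, and Dusp1 with 33 and 27. In cells with Xist UMIs only the ratio of the sum was 0.65 (0.29 to 1.02), and in those with only Y-linked ones 1.60 (1.20 to 2.02).

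This difference rested largely on 8 cells. The 6 SD+RS and 2 SD cells in the Pmaip1 cluster had 245 and 45 of the early gene UMIs, or 2303 and 1084 CPM, and 50 and 8 of the Fos UMIs. Without that cluster Fos had 49 UMIs in SD+RS and 32 in SD, with a log2 ratio of 0.32 (−0.36 to 1.01), and the sum had 252 and 153 UMIs, with 0.42 (0.13 to 0.72). These 8 cells had 0 Pmaip1 UMIs, in a cluster whose leading gene is Pmaip1. The cells of the same cluster that did not pass the rule had 196 CPM of the sum in SD+RS and 229 CPM in SD, and few of them had Th: 4 of 96 and 4 of 66. Within that cluster the sum was thus higher in the 6 SD+RS and 2 SD cells of the rule than in the rest. Of the cluster's 170 cells, 24.1% had a Slc18a2 UMI and 9.41% a Th UMI, so the rest includes cells with Slc18a2. The parts of the 2 genes were not tested.

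The other clusters did not share 1 direction. In the Ddc Sp8 cluster the sum was lower in SD+RS, with 12 UMIs (39.4 CPM), against 40 UMIs (92.2 CPM) in SD (log2 −1.23, −2.29 to −0.27), and both were below the 211 and 196 CPM of the cells of that cluster outside the rule. In the Prok2 Adcyap1 cluster it was 379 CPM in SD+RS and 183 CPM in SD (1.05, 0.15 to 2.09, with 11 UMIs in the 2 SD cells). In the Calca Lhx8 cluster it was 116 CPM in SD+RS and 286 CPM in SD, from 17 and 16 UMIs. In the Prkcd Rxfp1 cluster it was 346 and 76.7 CPM, from 27 and 5 UMIs, and there the cells outside the rule had 378 and 122 CPM. Cells in clusters that held under 5 of the set had 212 and 211 CPM (0.00, −0.45 to 0.46).

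**Figure D5:**
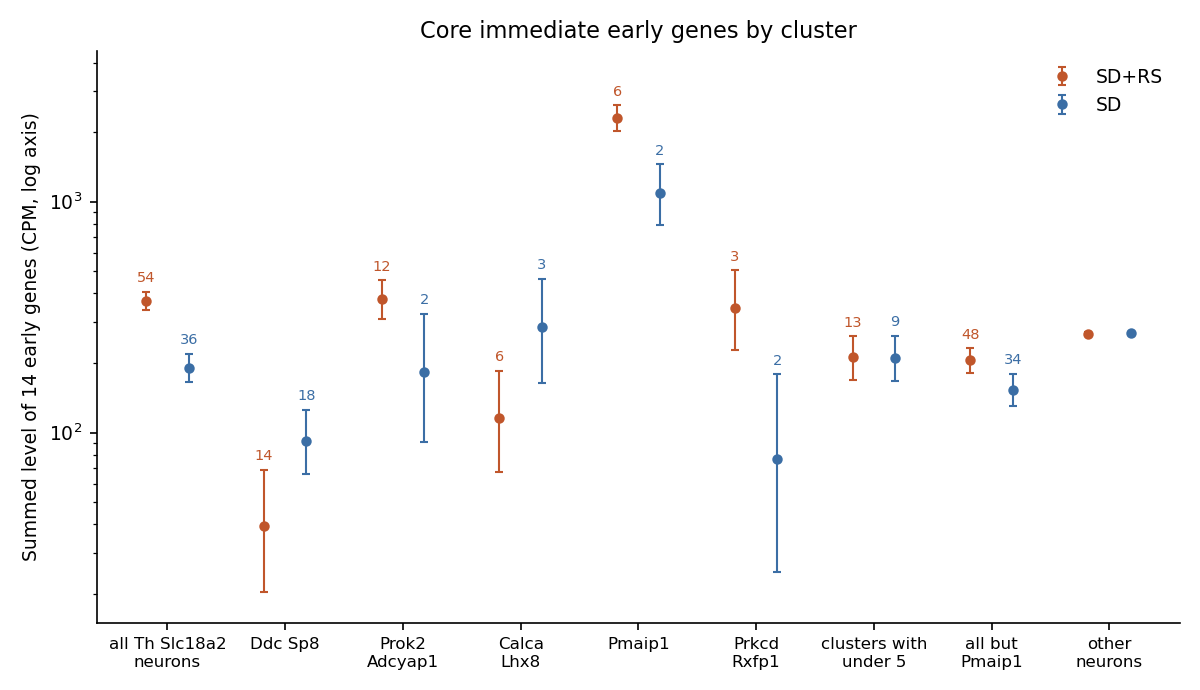
Summed level of 14 immediate early genes (y axis, CPM, log axis) in the Th Slc18a2 neurons as a whole, by cluster and without the Pmaip1 cluster, and in other neurons (x axis), in SD+RS (left points) and SD (right points). Whiskers are exact 95% Poisson intervals that cover counting error only, and numbers are cells; the Pmaip1 cluster cells stand at 2303 and 1084 CPM and the Ddc Sp8 cells at 39.4 and 92.2 CPM.

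Other activity, stress and temperature genes were compared between libraries. Over all 3774 genes so compared, 1.48% were past 1.5-fold in the higher direction and 1.93% in the lower. Of 20 other early genes 2 had enough UMIs between libraries, and Jun was past 1.5-fold, at 110.1 CPM in SD+RS and 70.2 CPM in SD (log2 0.65, 0.24 to 1.08, against −0.15 in other neurons). Of 18 heat shock genes 13 were compared, and Chordc1 alone was past 1.5-fold. All 5 cold-inducible RNA-binding genes were compared, and Rbm3 (0.60) and Srsf5 (0.68) were past 1.5-fold, against 0.37 and 0.57 in other neurons. Cirbp had a ratio of 0.56, against 0.49 in other neurons. Of 17 clock genes 5 were compared, and Rorb alone was past 1.5-fold.

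Markers of microglia and of oligodendrocyte precursors were lower than in other neurons in both libraries, and those of other types were not. Microglia markers summed to 2.25 CPM in SD+RS, against 20.9 CPM in other neurons, and to 4.81 CPM in SD, against 31.1 CPM, with 4 and 2 of the 7 at 0. Precursor markers summed to 33.7 CPM in SD+RS, against 60.5 CPM in other neurons, and to 22.1 CPM in SD, against 70.4 CPM. Oligodendrocyte markers summed to 106 CPM in SD+RS, against 78.9 CPM in other neurons (log2 0.43, 0.18 to 0.67), and to 96.1 CPM in SD, against 122 CPM (−0.35, −0.65 to −0.06). Astrocyte markers summed to 366 CPM in SD+RS, against 370 CPM in other neurons, and to 286 CPM in SD, against 406 CPM, with 0 and 2 of the 8 at 0. Mural cell markers summed to 2.25 CPM in SD+RS, against 20.7 CPM in other neurons, and to 89.4 CPM in SD, against 33.4 CPM, where 1 cell held 89 of the 93 UMIs. Endothelial markers stood at 1110 CPM in SD+RS, against 1030 CPM in other neurons, and at 943 CPM in SD, against 1018 CPM, nearly all of it from Bsg (1075 and 896 CPM), with 4 and 3 of the 7 at 0. In SD+RS 2 cells fell in a cluster led by astrocyte genes and 2 in one led by microglial genes. A doublet caller marked 2 SD+RS cells and 1 SD cell. The marked cells, those in the astrocyte and microglia clusters and the oxytocin-rich cell came to 4 SD+RS and 2 SD cells in all, since some met more than 1 criterion, and without them the ratio of the early gene sum was 1.05 and that of Fos 0.98.

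The authors' deposited tables of cluster markers list Th as higher in 4 of 41 clusters of both libraries, 3 of 31 of the SD+RS library and 1 of 33 of the SD library. They list Slc18a2 in 2, 1 and 0 of these, and Slc6a3 in none. Cluster 16 of SD+RS, led by Ddc, is the one for which the authors' deposited table names both, with Th in 42.0% of its cells and Slc18a2 in 30.4%. For cluster 19 of SD, led by Mef2c and Ddc, the authors' deposited table gives Th in 40.7% of its cells.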

How the data were processed

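For each library the authors deposited a matrix of whole-number UMI counts, 31054 genes by cells, made by the authors with Cell Ranger 3.0.2, per the file headers, on mm10, per the submitters' processing notes, which also name Seurat 4.0.4. The authors' deposited marker tables hold natural log differences, the fraction of a cluster's cells with a gene, and p-values from tests over cells. No p-value from them is printed here. Reads and mapping settings were not used here.

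The members and gene lists were chosen with earlier results of these data known. Barcodes with at least 500 genes were kept (7709 in SD+RS and 9875 in SD), and the neuron rule was applied to them. UMIs were summed over the cells of a set and divided by the set's total to give CPM. Log2 ratios carry exact conditional binomial intervals and shares carry Clopper-Pearson intervals, at 95%, for counting error only. A count of 0 allows a share of up to 3 divided by the number of cells. Genes entered the comparison of libraries with at least 50 UMIs in the Th Slc18a2 neurons of each library (threshold 1.5-fold). They entered the comparison with other neurons where both libraries reached 20 UMIs in the Th Slc18a2 neurons, or, for lower genes, 20 expected from the level in other neurons (threshold 2-fold in both libraries). Genes named were all those of the dopamine and noted lists, the 20 highest and 10 lowest over other neurons, the 10 highest and 10 lowest between libraries, and examples from other lists; mitochondrial, ribosomal, haemoglobin, Xist and Y-linked genes were left out of the rankings. Cells of both libraries were clustered together without batch correction on counts scaled to 10000 (2000 variable genes, 40 principal components, 20 neighbours, Leiden resolution 1.5). Doublets were scored against simulated pairs (2 for each cell), and marked cells were kept: 260 in SD+RS (3.37%) and 575 in SD (5.82%), with 53.9% and 62.1% of simulated pairs marked. Scripts were tested on simulated data and ran in Python 3.11.15 with numpy 2.4.6, scipy 1.17.1, scikit-learn 1.9.0, igraph 0.11.9, leidenalg 0.10.2 and pandas 2.3.3. Promoter sequences come from RefSeq (GRCm38.p6). Alternatives that leave out clusters or doubtful cells were chosen after seeing the data. Some genes of these lists and rankings are not reported here.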

Additional observations from a re-analysis of the deposited data

How the results depend on the processing

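No paired analysis was possible because each group is 1 library, and for the same reason no library could be left out. The log2 ratio of the early gene sum (0.97) was 1.25 with at least 5 Th UMIs, 1.43 with at least 10, 1.23 with at least 2 Slc18a2 UMIs, 0.65 in cells with Xist only, 1.60 in cells with Y-linked genes only and 0.42 without the Pmaip1 cluster, where that of Fos (0.95) was 0.32. The 56 genes higher in SD+RS were 19 with at least 10 Th UMIs, 18 with at least 2 Slc18a2 UMIs, 15 in Xist cells, 10 after thinning, and 270 and 17 with minimums of 20 and 100 UMIs. The 73 lower were 34 with at least 10 Th UMIs, 42 in Xist cells, 26 in Y-linked cells, 16 after thinning, 275 and 11 with those minimums and 40 without the Prok2 Adcyap1 cluster. Over other neurons the 26 higher genes were 15 in Xist cells, 3 after thinning and 44 with a lower minimum, and the 38 lower were 19, 9 and 82, and 25 with a higher minimum. Thinning, stricter rules and higher minimums leave fewer UMIs or genes to compare. The share of neurons was 0.362% in SD+RS and 0.229% in SD with at least 10 Th UMIs, 0.819% and 0.459% with at least 2 Slc18a2 UMIs, 1.76% in SD+RS in Y-linked cells and 0.466% in SD without the Ddc Sp8 cluster.

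Of 616 log2 values under alternatives 43 had the opposite sign to the value reported, and the cause was not tested. For 11 of these the reported interval lay clear of 0. Between libraries, Cck was −1.87, Gal −0.16 and Gad2 0.012 without the Prok2 Adcyap1 cluster, and Gal −0.57 and Gad2 0.075 with at least 10 Th UMIs. Over other neurons in SD, Cck was 0.25 and Ddc −0.32 with at least 10 Th UMIs, and Rorb −0.39 without its highest cell and −0.64 without the Prok2 Adcyap1 cluster. Over other neurons in SD+RS, Cck was −2.64 without that cluster and Slc10a4 −1.45 without the Slc5a7 Slc18a3 cluster. For the other 32 the reported interval spanned 0, and 8 of them were clear of 0 under the alternative, all between libraries: Ddc (2.77) with at least 10 Th UMIs, Slc18a3 (−1.10 and −1.07) with at least 5 and 10, Slc10a4 (2.40) in Xist cells, and Prok2 with at least 10 Th UMIs (−0.74), with at least 2 Slc18a2 UMIs (−0.82), in Y-linked cells (−0.67) and without its cluster (−0.55). Of the main values under all alternatives run, 99 stayed within the limits set and 33 moved. Scaling to the median ratio was not run against other neurons; between libraries it gave 56 higher and 74 lower. With 90 cells, genes under 50 UMIs in either library were left out of the counts of genes past 1.5-fold between libraries. Ratios between libraries given for Fos, Cck and Sox3, among others, rest on fewer UMIs than that minimum in SD or in both.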
